A study of Arabidopsis thaliana with 56 samples.

Results

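A set of 110 Arabidopsis thaliana genes was nearly silent in wild-type (WT) endosperm nuclei and was read in endosperm nuclei of plants labelled crwn1/2. The genes were chosen on their mRNA level in CPM, the counts of a gene per 1000000 counts assigned to features in the same library. A gene entered when its mean over the 8 WT libraries was under 0.5 CPM and its mean in at least 1 crwn1/2 age group was at least 3 CPM. Of 32399 genes with nuclear locus identifiers, 8877 others met the WT level and not the crwn1/2 level. Another 12 genes, AT2G21465 and 11 MADS-box genes, had been set aside in advance, and 7 of those met both levels. Because the mRNA levels chose the genes, their levels and the contrasts between the mRNA groups are given below as a description.

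CRWN proteins (CROWDED NUCLEI) are plant-specific coiled-coil proteins that line the inside of the nuclear envelope, where they set nuclear shape and anchor chromatin. The endosperm is the nutritive seed tissue that surrounds the embryo, and many developmental genes there are held silent by Polycomb repressive complex 2 (PRC2), which trimethylates histone H3 at lysine 27 (H3K27me3). Low-molecular-weight cysteine-rich (LCR) genes, the best represented named family among the 110, encode small secreted peptides related to plant defensins, a class known from defence and from signalling in reproductive tissues. The comparison asks which silent genes are read in endosperm with the crwn1/2 genotype and whether the repressive mark differs over them.

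Nuclear mRNA was sequenced from seed nuclei that had been sorted for a 6C DNA content, the sort that enriches endosperm, since this tissue is triploid. The groups were crwn1/2 at 6 days after pollination (DAP) with 3 libraries, crwn1/2 at 7 DAP with 5, crwn1/2 at 8 DAP with 4, WT at 6 DAP with 4 and WT at 7 DAP with 4. WT had no 8 DAP group, so crwn1/2 at 8 DAP could be set only against WT at 7 DAP, where age and genotype differ together. H3K27me3 was profiled by CUT&RUN, which cuts out antibody-bound chromatin with a tethered nuclease, in 3 crwn1/2 and 3 WT samples of 6C endosperm nuclei and in 3 crwn1/2 and 3 WT samples of leaf nuclei. The labels give no age for the H3K27me3 samples, and they name neither the crwn1 and crwn2 alleles nor a batch. Seeds of 1 to 5 siliques were pooled for a library, and nothing states that replicates came from separate plants, so the p-values below measure only the spread between these libraries.

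Each mRNA library held 6986418 to 14359413 counts, so that 1 count stood for 0.0696 to 0.143 CPM and the 3 CPM level for 21.0 to 43.1 counts. CRWN1 had 44.9 to 115 CPM (median 95.6) in the 12 crwn1/2 libraries and 72.7 to 150 CPM (median 98.2) in the 8 WT libraries. CRWN2 had 10.8 to 38.7 CPM (median 26.9) in crwn1/2 and 32.9 to 89.0 CPM (median 47.6) in WT. Both genes were therefore read in crwn1/2 libraries, and their ranges overlapped between genotypes. The summed level of 9 endosperm marker genes was 332 to 576 CPM in crwn1/2 at 6 DAP, 158 to 273 CPM at 7 DAP and 112 to 222 CPM at 8 DAP, against 277 to 321 CPM in WT at 6 DAP and 183 to 280 CPM in WT at 7 DAP. The 7 seed coat markers summed to 2126 to 2608 CPM, 1060 to 1550 CPM and 707 to 1168 CPM in crwn1/2 at the 3 ages, against 1422 to 1758 CPM in WT at 6 DAP and 994 to 1408 CPM in WT at 7 DAP. None of these marker genes was at 0 in all libraries. In such bulk nuclei fewer cells of a type and less RNA per cell cannot be told apart.

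The word silent applies to WT as a low level and not as an absence. The 110 genes had 1 to 33 counts each (median 20) over the 8 WT libraries together, and means of 0.0132 to 0.497 CPM (median 0.305). In the 12 crwn1/2 libraries they had 116 to 3794 counts each (median 296). Their highest crwn1/2 age-group means ran between 3.01 and 53.9 CPM (median 4.98), so most were still low. Just inside the WT limit were AT4G24973 at 0.497 CPM, AT5G46950 at 0.495 CPM and AT4G32105 at 0.493 CPM, and just outside it were AT3G45990 at 0.503 CPM, AT3G62350 at 0.506 CPM and AT4G23350 at 0.508 CPM. Just inside the crwn1/2 limit were LCR12 at 3.01 CPM, bHLH39 at 3.04 CPM and AT2G32790 at 3.06 CPM, and just outside it were GA20OX5 at 2.96 CPM and AT1G64107 and AT2G43960 at 2.93 CPM each.

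Little is recorded about most of the genes. RefSeq lists 109 as protein-coding and 1, AT2G15810, as a pseudogene, and 85 of the 110 (77.3%) carry no symbol, against 84.5% of all genes at the WT level and 66.7% of all genes. LCR genes made up 11 of the 110 (10%), against 55 (0.640%) of the genes at the WT level and 80 (0.251%) of all genes. The set also held 2 expansins, which loosen cell walls, and 2 senescence-associated genes. The genes were short, with a median span of 802 bp (297 to 3955 bp), against 1098 bp for 5161 other protein-coding genes at the WT level. They lay on all 5 chromosomes, with 26 on chromosome 1, 26 on chromosome 2 (23.6%, against 16.4% of all genes), 23 on chromosome 3, 12 on chromosome 4 and 23 on chromosome 5.

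**Figure D1:**
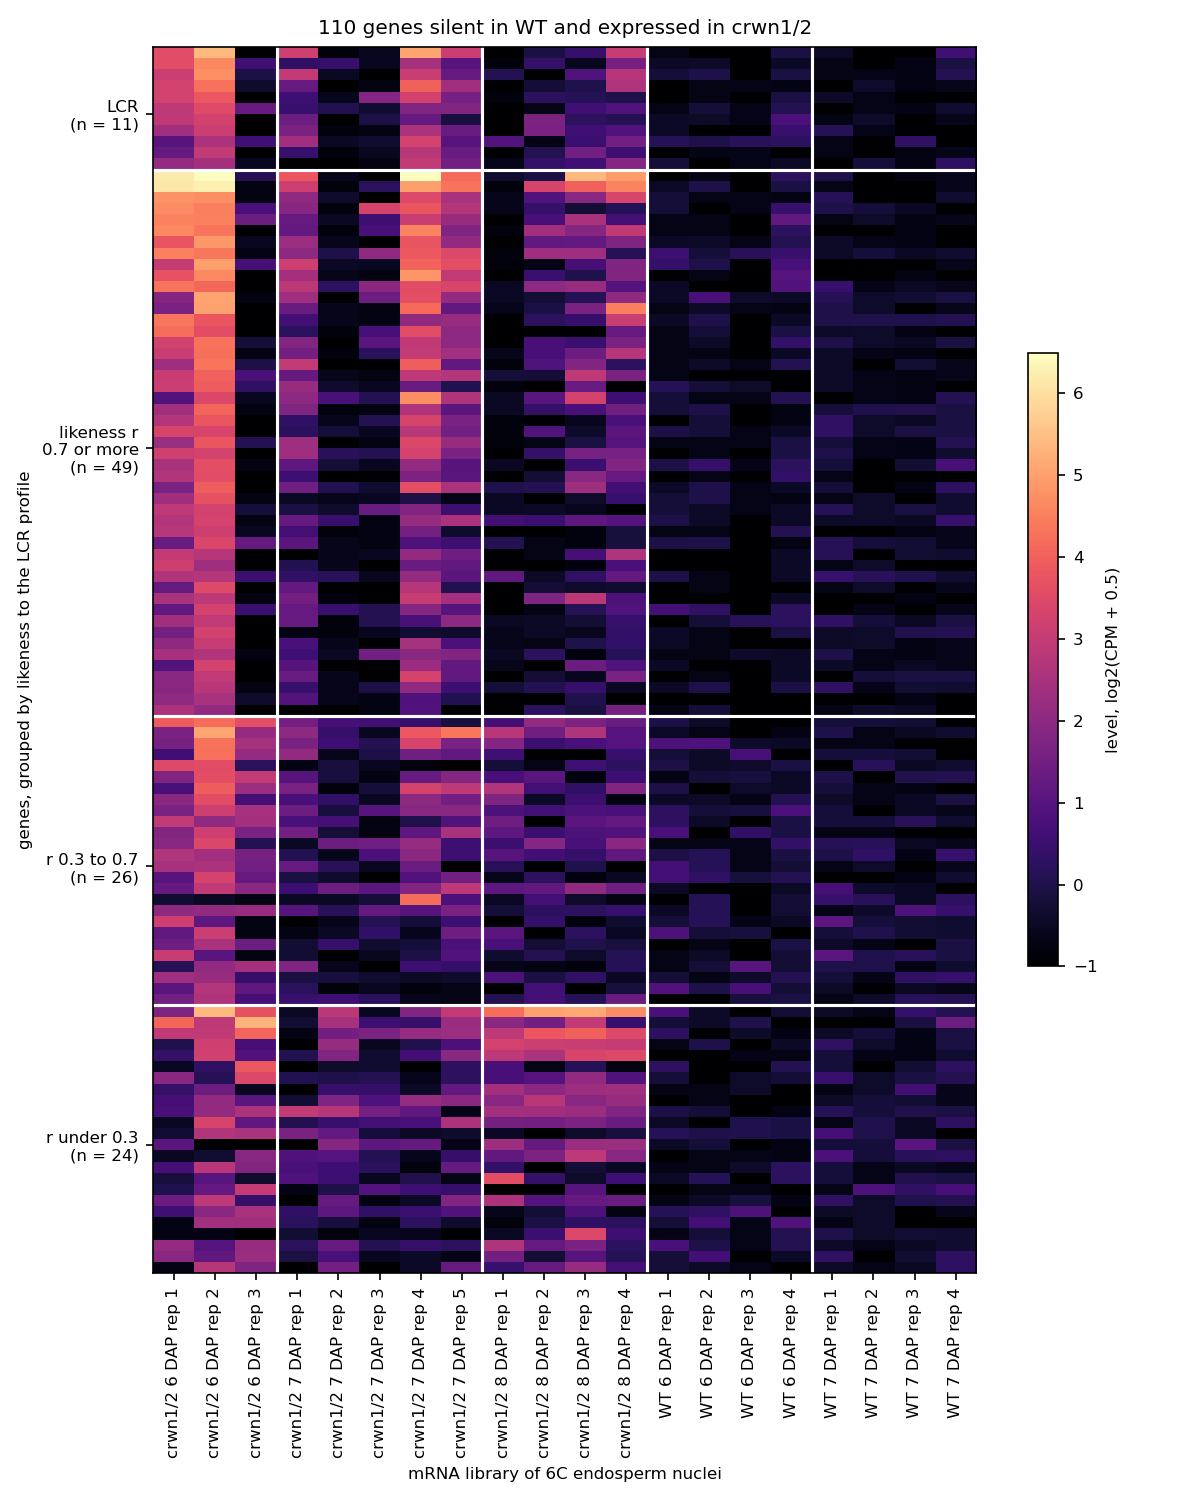
mRNA level of the 110 genes, 1 per row, in each library, 1 per column, with crwn1/2 at 6, 7 and 8 DAP left of WT at 6 and 7 DAP. Colour is log2(CPM + 0.5). Most rows are brightest in crwn1/2 6 DAP replicates 1 and 2, and WT columns are dark throughout.

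The summed level of the 110 genes was 764, 1361 and 241 CPM in crwn1/2 6 DAP replicates 1 to 3. It was 218, 80.1, 73.4, 707 and 333 CPM in crwn1/2 7 DAP replicates 1 to 5 and 144, 175, 307 and 317 CPM in crwn1/2 8 DAP replicates 1 to 4. The 8 WT libraries had 18.2 to 43.3 CPM, with a median of 33.2 CPM. Every crwn1/2 library lay above every WT library in this sum, which the choice of genes brings about, but crwn1/2 libraries of the same age differed several-fold among themselves. At 6 DAP replicate 3 lay far below the other 2, and at 7 DAP replicate 4 lay far above replicates 2 and 3.

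The number of genes at 1 CPM or more showed the same unevenness. It was 96, 104 and 46 of 110 in crwn1/2 6 DAP replicates 1 to 3, 60, 20, 22, 80 and 77 in crwn1/2 7 DAP replicates 1 to 5 and 35, 41, 56 and 65 in crwn1/2 8 DAP replicates 1 to 4, against 1 to 9 (median 4) in WT libraries. The 12 genes set aside in advance, which did not enter the sums above, had 111, 239 and 21.6 CPM in the 3 crwn1/2 6 DAP libraries, 40.6, 7.10, 17.1, 118 and 118 CPM at 7 DAP, 18.3, 14.9, 29.0 and 46.0 CPM at 8 DAP, and 1.15 to 7.53 CPM in WT. Those genes too were lowest at 6 DAP in replicate 3 and at 7 DAP in replicates 2 and 3.

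**Figure D2:**
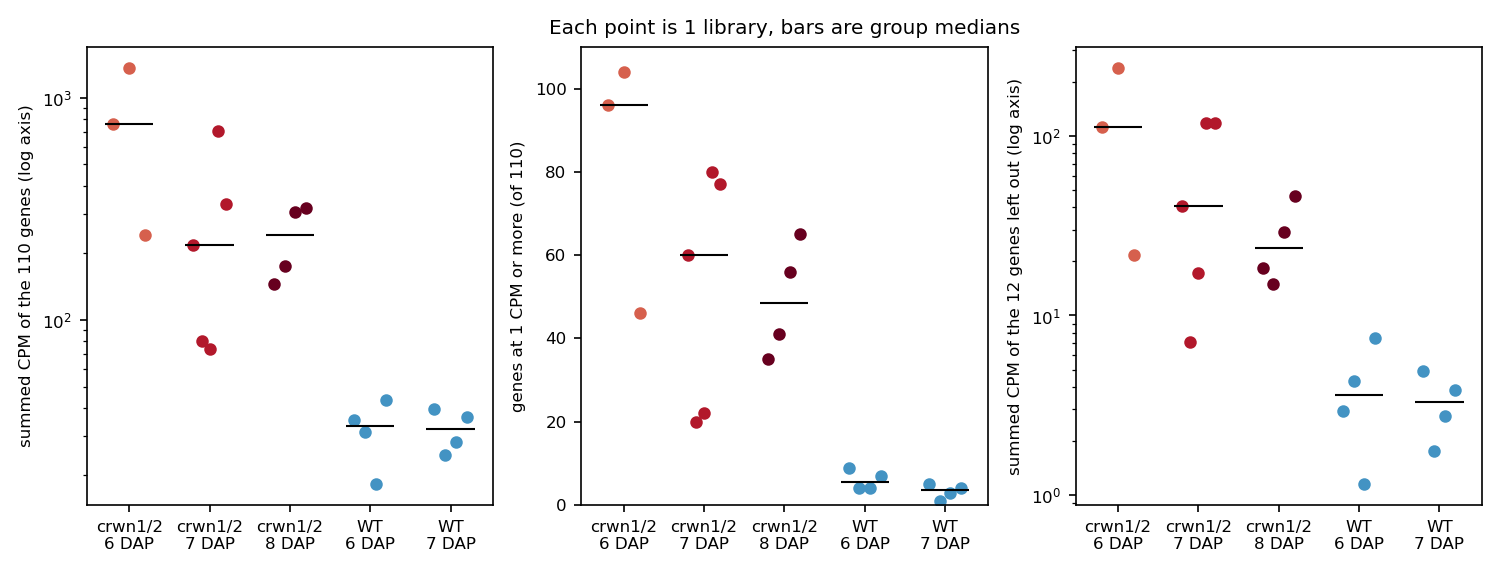
Summed CPM of the 110 genes (left, log axis), number of them at 1 CPM or more (middle) and summed CPM of the 12 genes set aside (right, log axis), with 1 point per library, bars for group medians and crwn1/2 at 6, 7 and 8 DAP left of WT at 6 and 7 DAP. For the 110 genes the crwn1/2 libraries lie between 73.4 and 1361 CPM and the WT libraries between 18.2 and 43.3 CPM.

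No gene was above all WT libraries in all 12 crwn1/2 libraries. The median gene was above every WT library in 7 of the 12 crwn1/2 libraries (1 to 11), and 88 genes were so in at least 6. The choice of genes favours such counts, so they are a description. The highest library was crwn1/2 6 DAP replicate 2 for 67 genes and replicate 1 for 17. For 14 genes a single library held over 50% of the summed crwn1/2 CPM. For 15 genes the second highest library was under 3 CPM. CRWN1 had its lowest level, 44.9 CPM, in that same crwn1/2 6 DAP replicate 2, where CRWN2 had 24.3 CPM. Seed coat markers summed to less in crwn1/2 6 DAP replicate 2 (2126 CPM) than in the other 2 libraries of that age, and endosperm markers to more (576 CPM). Whether these differences have a part in the levels of the 110 genes was not tested.

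The age-group mean was highest at 6 DAP for 96 genes, at 7 DAP for 3 and at 8 DAP for 11. The 3 CPM level was reached by 102 genes at 6 DAP, 34 at 7 DAP and 19 at 8 DAP, by 9 at all 3 ages and by 74 at a single age.

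The 11 LCR genes varied together across the crwn1/2 libraries. Over the 12 crwn1/2 libraries their pairwise correlations of log2(CPM + 0.5) had a median of 0.786 (0.441 to 0.976), a description that carries no test, since the libraries share age and the overall unevenness given above. Their summed level was 75.1, 170 and 4.93 CPM in crwn1/2 6 DAP replicates 1 to 3, 2.16 to 106 CPM at 7 DAP and 2.29 to 32.5 CPM at 8 DAP, against 1.28 to 5.28 CPM in WT. The lowest libraries of each crwn1/2 age thus lay inside the WT range.

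LCR60, the LCR gene with the highest age-group mean, had 11.5, 41.9 and 0 CPM in crwn1/2 6 DAP replicates 1 to 3, 8.68, 0.0696, 0.188, 34.1 and 8.40 CPM in crwn1/2 7 DAP replicates 1 to 5 and 0, 0.456, 0.842 and 7.84 CPM in crwn1/2 8 DAP replicates 1 to 4, against 0 to 1.00 CPM (median 0.0585) in WT. It was high in some crwn1/2 libraries of each age and unread or near 0 in the others. Its means were 17.8 ± 21.6 CPM at 6 DAP (SD, n = 3), 10.3 ± 14 CPM at 7 DAP (SD, n = 5) and 2.28 ± 3.72 CPM at 8 DAP (SD, n = 4). LCR60 overlaps AT2G20210, and since the strand setting of the counting is not stated, reads of the 2 genes cannot be fully told apart. In all, 11 of the 110 genes overlap another counted gene and share this limit, OPR1 and AT2G30766 among them.

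LCR83 had 8.08, 26.2 and 0.466 CPM in crwn1/2 6 DAP replicates 1 to 3, 0 to 7.99 CPM (median 1.93) at 7 DAP and 0 to 6.29 CPM (median 0.961) at 8 DAP, against 0 to 0.573 CPM in WT. LCR35 had 11.5, 24.1 and 1.02 CPM in crwn1/2 at 6 DAP, 0.188 to 5.02 CPM at 7 DAP and 0.0717 to 2.52 CPM at 8 DAP, against 0 to 0.429 CPM in WT. All 3 of these LCR genes had their lowest 6 DAP level in replicate 3. LCR65, also lowest in replicate 3 at 6 DAP with 1.52, 5.52 and 1.02 CPM, differed in having its highest level, 9.51 CPM, in crwn1/2 7 DAP replicate 4, against at most 0.741 CPM in WT. The other 7 LCR genes (LCR12, LCR21, LCR24, LCR36, LCR37, LCR38 and LCR61) had highest age-group means of 3.01 to 9.27 CPM, all at 6 DAP.

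Over all 110 genes, r with the mean profile of the LCR genes had a median of 0.766 (-0.611 to 0.979). The profile was thus not particular to the LCR genes. Beside these, 49 genes followed it with r of at least 0.7 over the 12 crwn1/2 libraries, and 48 of the 49 were highest at 6 DAP. Among these was AT3G02670, the gene with the highest age-group mean of all 110. It had 71.9, 89.2 and 0.559 CPM in crwn1/2 6 DAP replicates 1 to 3, 13.3, 0.139, 0, 89.0 and 17.3 CPM in crwn1/2 7 DAP replicates 1 to 5 and 0.287, 0.456, 40.6 and 29.9 CPM in crwn1/2 8 DAP replicates 1 to 4, against 0 to 0.674 CPM (median 0.113) in WT. High and near-zero libraries occurred side by side at every crwn1/2 age. Its means were 53.9 ± 47.0 CPM at 6 DAP, 24 ± 37.2 CPM at 7 DAP and 17.8 ± 20.6 CPM at 8 DAP, each with an SD near to or above the mean.

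AT1G56415 had 69.6, 76.9 and 0.0931 CPM in crwn1/2 6 DAP replicates 1 to 3, 8.46, 0.0696, 0.660, 31.1 and 19.3 CPM at 7 DAP and 0.0717, 9.57, 15.6 and 23.5 CPM at 8 DAP, against 0 to 0.480 CPM in WT. The same libraries were low as for AT3G02670, with crwn1/2 8 DAP replicate 2 now higher. Per kilobase of gene span AT1G56415 had the highest 6 DAP mean of all 110 genes, 81.4 CPM per kb, followed by AT3G02670 with 58.4 CPM per kb and AT5G15000 with 54.4 CPM per kb. AT5G15000, the shortest of the 110, had 25.3, 22 and 1.21 CPM in crwn1/2 at 6 DAP, 0.0696 to 13.3 CPM at 7 DAP and 0.143 to 0.797 CPM at 8 DAP, against at most 0.899 CPM in WT.

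AT1G10745 is named EMBRYO SURROUNDING FACTOR 1.2 in RefSeq, after a family of small cysteine-rich peptides of the central cell and endosperm that act on early embryo patterning. It had 22.9, 22.3 and 2.14 CPM in crwn1/2 6 DAP replicates 1 to 3, 0.209 to 7.91 CPM (median 1.95) at 7 DAP and 0 to 5.22 CPM at 8 DAP, against 0 to 1.80 CPM (median 0.121) in WT. All 3 crwn1/2 6 DAP libraries were above every WT library, while some 7 and 8 DAP libraries were not. AT1G73610, next to LCR65 on chromosome 1, had 27.7, 25.6 and 0.0931 CPM in crwn1/2 at 6 DAP, against at most 0.612 CPM in WT. AT3G03828 had 24.2, 19.7 and 0 CPM in crwn1/2 at 6 DAP and reached 23.1 CPM in crwn1/2 7 DAP replicate 4, against at most 0.674 CPM in WT.

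**Figure D3:**
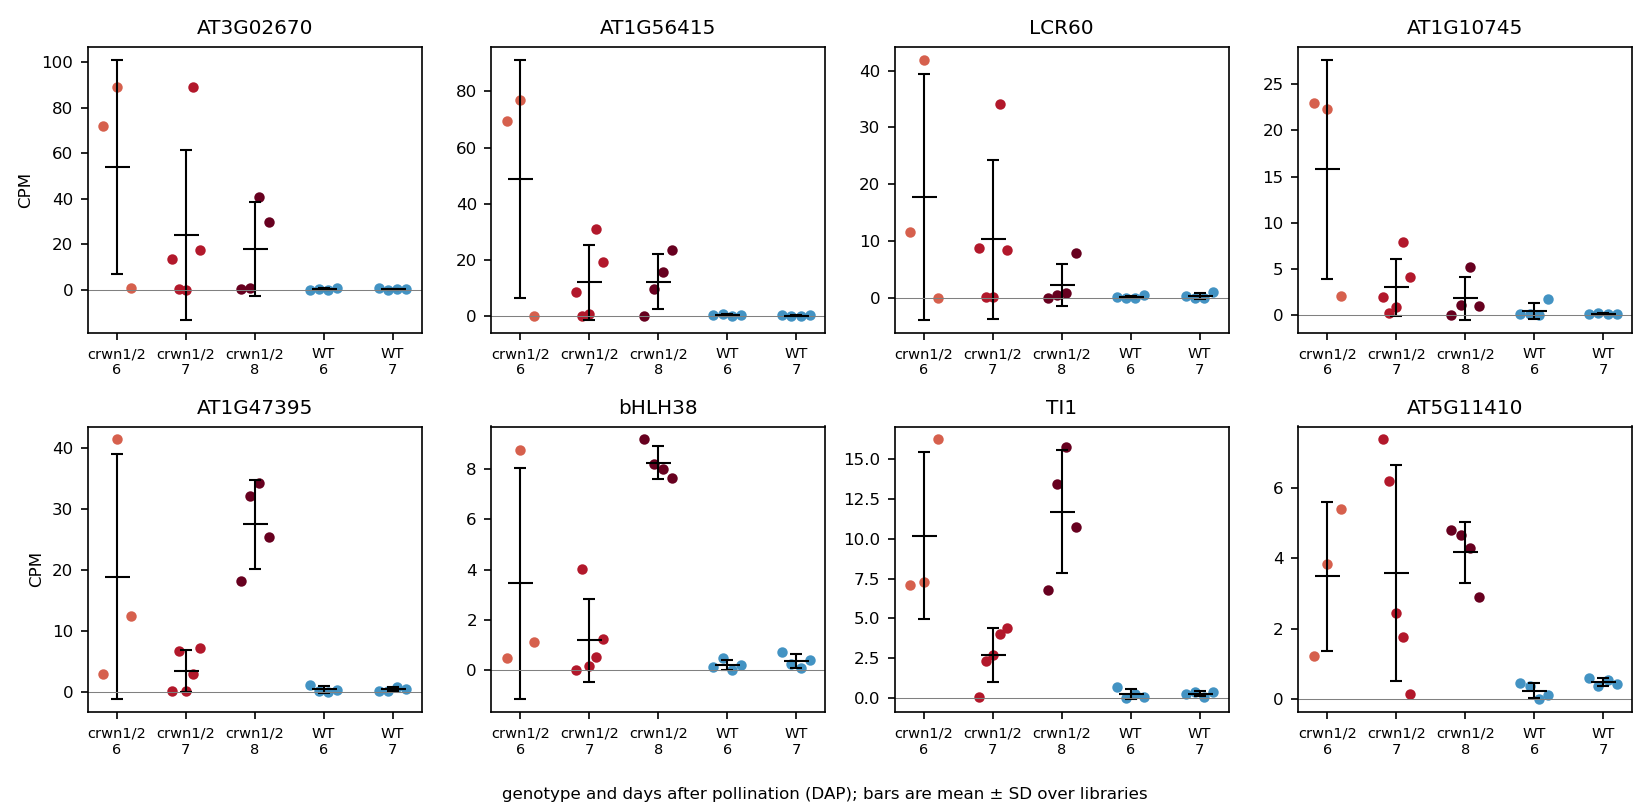
CPM of 8 genes in each library, with points for libraries and bars for the mean ± SD of each group, crwn1/2 at 6, 7 and 8 DAP left of WT at 6 and 7 DAP. AT3G02670, AT1G56415, LCR60 and AT1G10745 spread widely within 6 DAP, bHLH38 and AT1G47395 are high in all 4 libraries of crwn1/2 at 8 DAP, and AT5G11410 is similar at the 3 ages.

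Genes of the cell wall were among those read mainly at 6 DAP. EXPA23, an alpha-expansin, had 18.1, 11.8 and 0 CPM in crwn1/2 6 DAP replicates 1 to 3, 0.0696 to 11.3 CPM at 7 DAP and 0, 0, 0 and 1.94 CPM at 8 DAP, against 0 to 0.449 CPM in WT. EXPB4, a beta-expansin, had 4.75, 7.19 and 0 CPM in crwn1/2 at 6 DAP, against at most 0.735 CPM in WT. GH9B9, a glycosyl hydrolase of the family that holds the plant endoglucanases, had 4.65, 12.2 and 0.0931 CPM in crwn1/2 at 6 DAP and at most 0.457 CPM at 7 DAP, against at most 0.480 CPM in WT. The 3 genes were all at or near 0 in crwn1/2 6 DAP replicate 3.

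PGL5, a 6-phosphogluconolactonase of the oxidative pentose phosphate pathway, had 10.7, 11.2 and 0.652 CPM in crwn1/2 6 DAP replicates 1 to 3. At later ages it had 0 to 0.418 CPM at 7 DAP and 0.114 to 1.01 CPM at 8 DAP, against 0 to 0.633 CPM in WT. It was thus within or near the WT range outside 2 libraries.

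AT2G04570 kept a similar level in all 3 crwn1/2 6 DAP libraries, with 14.4, 17.8 and 11.8 CPM, and had 0.413 to 2.39 CPM at 7 DAP and 1.07 to 3.87 CPM at 8 DAP, against 0 to 0.468 CPM (median 0.279) in WT. Its means were 14.7 ± 3.00 CPM at 6 DAP (SD, n = 3), 1.16 ± 0.739 CPM at 7 DAP (SD, n = 5) and 2.44 ± 1.18 CPM at 8 DAP (SD, n = 4). Replicate 3 was not far below the others here, unlike for the LCR genes.

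A group of 24 genes did not follow the LCR profile (r under 0.3), and all 11 genes that were highest at 8 DAP belonged to it. The LCR genes were highest at 6 or 7 DAP, so this is in part built into the grouping. WT had no 8 DAP libraries, so the WT level of these 11 genes at that age is not known. The summed level of the 24 genes was 50.0 to 145 CPM in crwn1/2 at 6 DAP, 17.6 to 51.4 CPM at 7 DAP and 85.5 to 131 CPM at 8 DAP, against 5.12 to 12.2 CPM in WT at 6 and 7 DAP. In this group every crwn1/2 library lay above every WT library and the 8 DAP libraries lay close together. The remaining 26 genes had r between 0.3 and 0.7.

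Genes known for the response to iron shortage stood in this group. bHLH38 and bHLH39 are neighbouring basic helix-loop-helix transcription factor genes on chromosome 3 that are known to be induced in iron-deficient roots, where their products act with FIT. bHLH38 had 0.505, 8.75 and 1.12 CPM in crwn1/2 6 DAP replicates 1 to 3, 0, 4.04, 0.188, 0.533 and 1.24 CPM in crwn1/2 7 DAP replicates 1 to 5 and 9.17, 8.20, 8.00 and 7.64 CPM in crwn1/2 8 DAP replicates 1 to 4, against 0 to 0.735 CPM (median 0.239) in WT. All 4 crwn1/2 libraries at 8 DAP were well above the WT libraries of 6 and 7 DAP and alike, with a mean of 8.26 ± 0.654 CPM. bHLH39 had 0.101, 6.14 and 2.89 CPM in crwn1/2 at 6 DAP and 0.860, 1.94, 4.04 and 1.06 CPM at 8 DAP, against 0 to 0.716 CPM in WT. bHLH38 overlaps AT3G56960, with the same limit on strand as for LCR60.

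The adjacent genes AT1G47395 and AT1G47400 on chromosome 1, which carry no symbol in RefSeq, were, like bHLH38 and unlike bHLH39, highest at 8 DAP. AT1G47395 had 2.93, 41.3 and 12.4 CPM in crwn1/2 6 DAP replicates 1 to 3, 0.217, 6.69, 0.188, 3.04 and 7.30 CPM in crwn1/2 7 DAP replicates 1 to 5 and 18.1, 32.1, 34.2 and 25.4 CPM in crwn1/2 8 DAP replicates 1 to 4, against 0 to 1.17 CPM (median 0.291) in WT. Its means were 18.9 ± 20.0 CPM, 3.49 ± 3.41 CPM and 27.5 ± 7.27 CPM at the 3 ages. AT1G47400 had 6.88, 5.35, 9.77 and 10.6 CPM in crwn1/2 at 8 DAP, against 0 to 0.367 CPM in WT, and AT2G30766 had 4.87, 3.42, 4.38 and 4.55 CPM in crwn1/2 at 8 DAP, against at most 1.06 CPM in WT.

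Defence and senescence genes were few and each had its own pattern. TI1, a trypsin inhibitor gene of the defensin-like class, had 7.07, 7.29 and 16.2 CPM in crwn1/2 6 DAP replicates 1 to 3, 0.109 to 4.40 CPM (median 2.73) at 7 DAP and 6.81, 13.4, 15.8 and 10.7 CPM at 8 DAP, against 0 to 0.702 CPM (median 0.25) in WT. It was above every WT library in all of the 6 and 8 DAP libraries. PR4, a hevein-like pathogenesis-related gene, had 3.94, 1.46 and 4.1 CPM in crwn1/2 at 6 DAP and 5.66, 1.94, 2.7 and 0.677 CPM at 8 DAP, against 0.127 to 1.17 CPM in WT.

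OPR1, a 12-oxophytodienoate reductase gene, had 2.12, 6.77 and 0.838 CPM in crwn1/2 at 6 DAP and 1.48 to 5.52 CPM at 8 DAP, against 0.112 to 0.735 CPM in WT. SAG12, a cysteine protease gene used as a marker of leaf senescence, owed its place to a single library, with 13.9 CPM in crwn1/2 6 DAP replicate 3 and at most 1.15 CPM in the other crwn1/2 libraries, against at most 0.716 CPM in WT. SAG13 likewise had 11.6 CPM in crwn1/2 8 DAP replicate 1 and at most 1.56 CPM in the other crwn1/2 libraries, against at most 0.674 CPM in WT. The 2 senescence-associated genes were thus high in different libraries. Of a list of 10 defence and salicylic acid genes, none belonged to the 110. Of the 4 of them that could be tested, 1 was higher and 0 lower in crwn1/2 than in WT at 6 DAP, 0 were higher and 1 lower at 7 DAP, and 1 was higher and 0 lower for crwn1/2 at 8 DAP over WT at 7 DAP. Over all features 6.37%, 10.9% and 6.9% were called higher and 6.26%, 13.5% and 7.04% lower.

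The remaining named genes were low. NF-YC7, a nuclear factor Y subunit gene, had 5.05, 5.52 and 2.33 CPM in crwn1/2 at 6 DAP, against at most 1.05 CPM in WT. GRP-3, a glycine-rich protein gene, had 1.92, 7.29 and 3.45 CPM in crwn1/2 at 6 DAP and 0.977 to 6.88 CPM at 7 DAP, against at most 1.1 CPM in WT. FAF2 had 4.44, 4.06 and 0.838 CPM in crwn1/2 at 6 DAP, against at most 0.859 CPM in WT. AT5G09490 was read in all 12 crwn1/2 libraries, with 2.63, 33.6 and 3.91 CPM at 6 DAP, 0.188 to 20.0 CPM at 7 DAP and 1.45 to 6.59 CPM at 8 DAP, against at most 0.490 CPM in WT.

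Genes of the set lay next to each other on the chromosome in 10 pairs, which took in 20 of the 110 genes. Over the 12 crwn1/2 libraries the 2 genes of a pair had r of 0.661 to 0.977 in log2(CPM + 0.5). The highest was between AT5G46950 and AT5G46960, which had 22.2, 20.1 and 0.0931 CPM and 19.4, 16.7 and 0 CPM in crwn1/2 6 DAP replicates 1 to 3. AT3G01327 and AT3G01328 had r of 0.943, AT1G47395 and AT1G47400 of 0.918, LCR21 and LCR24 of 0.900, AT4G32105 and AT4G32110 of 0.878 and AT2G03931 and AT2G03933 of 0.858. The lower values were 0.778 for AT2G20463 and AT2G20465, 0.735 for bHLH38 and bHLH39, 0.697 for AT3G17150 and AT3G17152 and 0.661 for LCR65 and AT1G73610. The points share the same libraries and ages, and no test was made.

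In the fit over all 24696 features that passed the filter on low counts (edgeR quasi-likelihood test, Benjamini-Hochberg adjusted p under 0.05), 104 of the 110 genes were tested. At 6 DAP 87 were higher and 0 lower in crwn1/2 than in WT, where 6.37% of all features were called higher. At 7 DAP 48 were higher and 0 lower, where 10.9% of all features were called higher. For crwn1/2 at 8 DAP over WT at 7 DAP 23 were higher and 0 lower, where 6.9% were called higher. The choice of the genes used these same contrasts, so these counts describe the selection. The count at 6 DAP was 43 without crwn1/2 6 DAP replicate 2, while leaving out crwn1/2 7 DAP replicate 4 left 30 genes at 7 DAP and leaving out WT 7 DAP replicate 1, 2 or 3 left 25, 26 or 28. For 8 DAP, 15 genes passed with crwn1/2 8 DAP replicate 3 left out and 15, 12, 12 and 12 with WT 7 DAP replicates 1 to 4 left out in turn.

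Within crwn1/2, 0 of the 104 genes were called higher and 17 lower at 7 than at 6 DAP, where 6.57% of all features were called higher and 4.64% lower. At 8 against 6 DAP 0 were higher and 44 lower, where 12.8% of all features were called lower, and at 8 against 7 DAP 4 were higher and 2 lower, where 2.22% and 1.73% were, or 3.95% in either direction. The choice took the highest of the 3 ages, so these counts too are a description. The 17 genes became 7 without crwn1/2 6 DAP replicate 2 and 5 without crwn1/2 7 DAP replicate 3, and the 44 became 20 without crwn1/2 6 DAP replicate 2. The 44 became 24, 27 and 27 without crwn1/2 8 DAP replicates 1, 2 and 3. The 6 genes called at 8 against 7 DAP came to 1 to 7 with a library left out.

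The lowest log2 differences at 7 against 6 DAP were -3.74 for AT4G24973, -3.60 for AT2G04570 and -3.25 for AT5G02090. Those at 8 against 6 DAP were -5.28 for AT1G56233, -5.10 for AT5G15000 and -5.0 for AT3G28250. AT4G24973 did not pass without crwn1/2 6 DAP replicate 2 (-2.86), nor AT5G02090 without replicate 3 (-2.04).

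H3K27me3 was measured in samples that the choice of genes did not use. A gene was counted as marked in a group when each of the 3 peak lists had a peak over its gene body. Of the 110 genes, 30 (27.3%) were marked in crwn1/2 endosperm and 40 (36.4%) in WT endosperm, where 15.9% and 21.2% of 31900 genes were. In leaf 49 (44.5%) were marked in crwn1/2 and 53 (48.2%) in WT, where 20.2% and 21.3% of all genes were. Among 5161 other protein-coding genes at the WT mRNA level, 33.7% were marked in crwn1/2 endosperm and 42.9% in WT endosperm, and 43.5% in crwn1/2 leaf and 45.0% in WT leaf. Among all 8487 other genes at the WT mRNA level, protein-coding or not, 22.8% were marked in crwn1/2 endosperm and 29.2% in WT endosperm. In endosperm the share of the 110 genes thus lay above that of all other genes of low WT level and below that of the protein-coding ones. In leaf it lay slightly above that of the protein-coding ones in both genotypes. None of these differences was tested.

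More of the 110 genes were free of peaks in endosperm than were marked. No list had a peak over 56 of the 110 genes (50.9%) in crwn1/2 endosperm and over 53 (48.2%) in WT endosperm. Between the genotypes, 29 genes were marked in both and 48 were free of peaks in both, and 10 were marked in WT with a peak in 1 or 2 of the crwn1/2 lists. A single gene (0.909%) was marked in WT endosperm with no peak in any crwn1/2 list, where 0.9% of all genes were, and 0 genes changed the other way, where 0.094% did. The share that lost the mark was therefore close to that of all genes, and among the other 5161 genes it was 53 (1.03%). In leaf 0 genes lost and 0 gained the mark, where 0.226% and 0.15% of all genes did.

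The number of genes with a peak varied from list to list within a group. It was 46, 33 and 48 in the 3 crwn1/2 endosperm lists, against 44, 48 and 53 in the 3 WT endosperm lists, and 54, 60 and 55 in the crwn1/2 leaf lists, against 57, 55 and 57 in the WT leaf lists. The crwn1/2 and WT endosperm ranges overlapped, and the lowest count came from crwn1/2 endosperm replicate 2. Of the endosperm lists it also held the fewest reads inside its peaks, 519351, against 1162433 and 1647160 in the other 2 crwn1/2 lists and 2228515 to 2866814 in WT endosperm lists. How far this depth sets the difference in marked genes was not tested. With 3 lists against 3 an exact permutation test of a single gene cannot give a p below 0.1, so none was made.

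**Figure D4:**
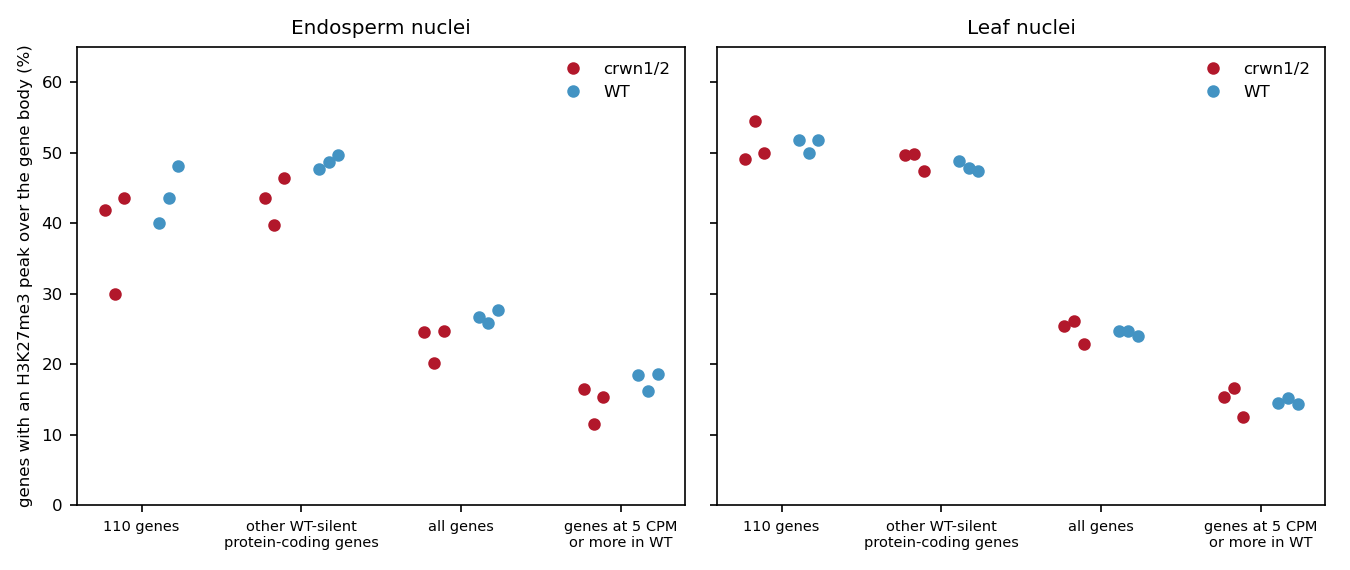
Share of genes with an H3K27me3 peak over the gene body, in percent, for the 110 genes and for other sets of genes, with points for the 3 peak lists of each group and crwn1/2 left of WT in each tissue. The crwn1/2 and WT points of the 110 genes lie between 30% and 48.2% in endosperm and between 49.1% and 54.5% in leaf.

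The gene that lost the mark was AT5G11410. Peaks covered 0, 0 and 0% of its body in the 3 crwn1/2 endosperm lists, against 100, 79.4 and 100% in the 3 WT endosperm lists, and 0% in all 6 leaf lists. In the authors' WT lists these peaks were chr5:3636151-3640049 with 254 reads, chr5:3637651-3639599 with 140 reads and chr5:3637201-3640349 with 231 reads (TAIR10). They were weak, with log2 enrichments of 0.41, 0.35 and 0.35 in the authors' peak lists. Its mRNA level was 1.21, 3.85 and 5.4 CPM in crwn1/2 6 DAP replicates 1 to 3, 7.38, 6.20, 2.45, 1.75 and 0.138 CPM in crwn1/2 7 DAP replicates 1 to 5 and 4.80, 4.67, 4.30 and 2.90 CPM in crwn1/2 8 DAP replicates 1 to 4, against 0 to 0.612 CPM (median 0.404) in WT. All but 1 crwn1/2 library were above every WT library, and the 3 age means, 3.49 ± 2.12, 3.58 ± 3.07 and 4.17 ± 0.870 CPM, differed by less than their spread.

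Highly read genes occurred with and without the mark. AT1G47395 was covered over 100% of its body in all 12 lists of both genotypes and tissues. AT1G56415 was covered over 100% in every list but crwn1/2 endosperm replicate 2. AT3G02670 was covered over 0, 70.6 and 100% in the crwn1/2 endosperm lists and over 38.1, 100 and 0% in the WT endosperm lists, and over 100% in every leaf list. LCR83, AT2G05540, SAG12, SAG13, PGL5 and NF-YC7 were marked in crwn1/2 and WT endosperm alike.

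bHLH38 had no peak in any of the 12 lists, and LCR60, AT1G10745 and OPR1 had none in the endosperm lists of either genotype. PR4 had none in the crwn1/2 endosperm lists and was not marked in WT endosperm. The nearest to a loss after AT5G11410 was AT1G67390, covered over 96.5, 0 and 0% in the crwn1/2 endosperm lists and over 100, 96.5 and 90.4% in the WT endosperm lists. AT5G35735 was covered over 0, 0 and 22% in crwn1/2 and over 39.8, 16.0 and 45.8% in WT endosperm. Those 2 were singled out after their values were seen.

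Median mRNA levels of the genes with and without the mark lay close together, and no test was made. The 40 genes marked in WT endosperm had a median highest age-group mean of 5.06 CPM, the 53 with no peak in WT endosperm 4.67 CPM and the 17 with a peak in 1 or 2 lists 5.77 CPM. The mark did differ in frequency between the groups of genes by likeness to the LCR profile: it lay in WT endosperm over 14 of the 24 genes with r under 0.3 (58.3%), 7 of the 26 with r of 0.3 to 0.7 (26.9%), 17 of the 49 others with r of at least 0.7 (34.7%) and 2 of the 11 LCR genes. These groups were formed from the mRNA values, and the shares are a description. Their median gene spans also differed, 1065.5 bp, 953 bp, 604 bp and 634 bp in the same order. Whether span has a part in these shares was not tested.

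The genes next to the 110 were also examined, leaving out members and the genes set aside in advance. An adjacent gene that met both limits could thus not count as a neighbour. The shares below are therefore not independent of the choice and are a description. Of 197 such neighbours 133 could be tested. At 6 DAP 11 rose (8.27%, against 6.37% of all features) and 8 fell in crwn1/2 relative to WT (6.02%, against 6.26% of all features). At 7 DAP 22 rose (16.5%, against 10.9%) and 10 fell (7.52%, against 13.5%), and for crwn1/2 at 8 DAP over WT at 7 DAP 13 rose (9.77%, against 6.9%) and 7 fell (5.26%, against 7.04%). The median log2 differences of the 133 neighbours were 0.15, 0.23 and 0.13, against -0.01, 0.02 and -0.02 for all features. The neighbours called at 6 DAP numbered 19 in both directions and 10 without crwn1/2 6 DAP replicate 2. The 20 called for 8 DAP were 11 without WT 7 DAP replicate 1, 10 without crwn1/2 8 DAP replicate 3 and 13 without replicate 4.

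A stretch of chromosome 3 held 3 members (AT3G01324, AT3G01327 and AT3G01328) and 3 neighbours that rose with them at 6 and 7 DAP (AT3G01323, AT3G01325 and AT3G01326). A further neighbour there, AT3G01329, rose at 7 DAP by 2.35 on the log2 scale (edgeR adjusted p = 0.0472). It did not pass at 6 DAP (1.53) or for crwn1/2 at 8 DAP over WT at 7 DAP (0.01). The member AT3G01324 had 13, 29.3 and 0.186 CPM in crwn1/2 6 DAP replicates 1 to 3, against at most 0.562 CPM in WT. AT3G01325 had 44.1, 97.7 and 1.77 CPM in crwn1/2 6 DAP replicates 1 to 3, against 0.234, 0.360, 0.128 and 3.71 CPM in WT 6 DAP replicates 1 to 4. Replicate 3 of crwn1/2 lay below WT replicate 4, so these groups overlapped. AT3G01325 rose by 5.33 on the log2 scale at 6 DAP (SE 1.03, edgeR adjusted p = 0.00122) and by 5.38 at 7 DAP (SE 1.16, edgeR adjusted p = 0.00240).

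AT3G01326 had 9.09, 26.8 and 2.98 CPM in crwn1/2 at 6 DAP, against 0.351, 1.44, 0.512 and 2.13 CPM in WT at 6 DAP. Every crwn1/2 library was above every WT library, and the log2 difference was 3.46 (edgeR adjusted p = 0.0234) at 6 DAP and 5.45 (edgeR adjusted p = 0.00319) at 7 DAP. AT3G01323 had means of 19 ± 17 CPM in crwn1/2 and 1.19 ± 0.743 CPM in WT at 6 DAP (SD, n = 3 and 4), with a log2 difference of 3.91 (edgeR adjusted p = 0.00845, 0.0679 without crwn1/2 6 DAP replicate 2). These IDs carry no name in RefSeq, and near-identical copies, if any, could share reads.

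AT5G54220, next to LCR83, had 45.1, 94.1 and 6.33 CPM in crwn1/2 6 DAP replicates 1 to 3, against 1.29, 0.240, 0.128 and 4.72 CPM in WT 6 DAP replicates 1 to 4. All crwn1/2 libraries were above all WT libraries at this age. AT5G54220 rose by 4.83 on the log2 scale at 6 DAP (SE 0.87, edgeR adjusted p = 0.000554) and by 4.95 at 7 DAP (SE 0.98, edgeR adjusted p = 0.00128). LCR22 had 1.62, 1.77 and 0 CPM in crwn1/2 at 6 DAP and no count in the 4 WT 6 DAP libraries, which put it at least 12.2-fold higher against a floor of 3 counts over the WT group, or 0.0893 CPM. AT5G09500, next to AT5G09490, rose at 7 DAP with a log2 difference of 4.32 (edgeR adjusted p = 0.00127).

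Other neighbours fell. TI2, the trypsin inhibitor gene next to TI1, had 10.9, 4.06 and 6.24 CPM in crwn1/2 6 DAP replicates 1 to 3, against 22.4, 39.3, 26.9 and 38.3 CPM in WT 6 DAP replicates 1 to 4. The groups did not overlap, and TI2 fell by 2.23 on the log2 scale (SE 0.44, edgeR adjusted p = 0.00146). TI1 itself was higher in crwn1/2 in the same libraries, so the 2 adjacent inhibitor genes differed in direction. AT5G14995, next to AT5G15000, had 8.59, 12.2 and 13.7 CPM in crwn1/2 at 6 DAP, against 34.2, 46.4, 32.7 and 50.7 CPM in WT, and fell by 1.90 on the log2 scale (SE 0.32, edgeR adjusted p = 0.000280).

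At 7 DAP the lowest differences among the neighbours were -2.99 for AT3G28270 (edgeR adjusted p = 0.00159), -2.80 for AT5G09480 (edgeR adjusted p = 0.00405) and -2.31 for AT2G20460 (edgeR adjusted p = 0.0446). The last did not pass under 10 alternatives, where the adjusted p reached 0.148. ASY1, a meiotic chromosome axis gene next to a member, fell at 6 DAP by 1.74 on the log2 scale (SE 0.45, edgeR adjusted p = 0.0117, and 0.0602 without crwn1/2 6 DAP replicate 3). For crwn1/2 at 8 DAP over WT at 7 DAP the lowest were -2.63 for AT3G28270, -2.37 for AT1G57570 and -1.42 for AT1G54450. AT1G57570 did not pass without crwn1/2 8 DAP replicate 3, nor AT1G54450 without that library, without replicate 4 or without WT 7 DAP replicate 1. The highest there were 4.2 for AT3G01326, 3.12 for AT1G63055 and 3.03 for AT5G09500, each of which missed the threshold with any of 5 or 6 single libraries left out. AT1G63055 overlaps the member AT1G63057, so its reads are not independent of it.

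**Figure D5:**
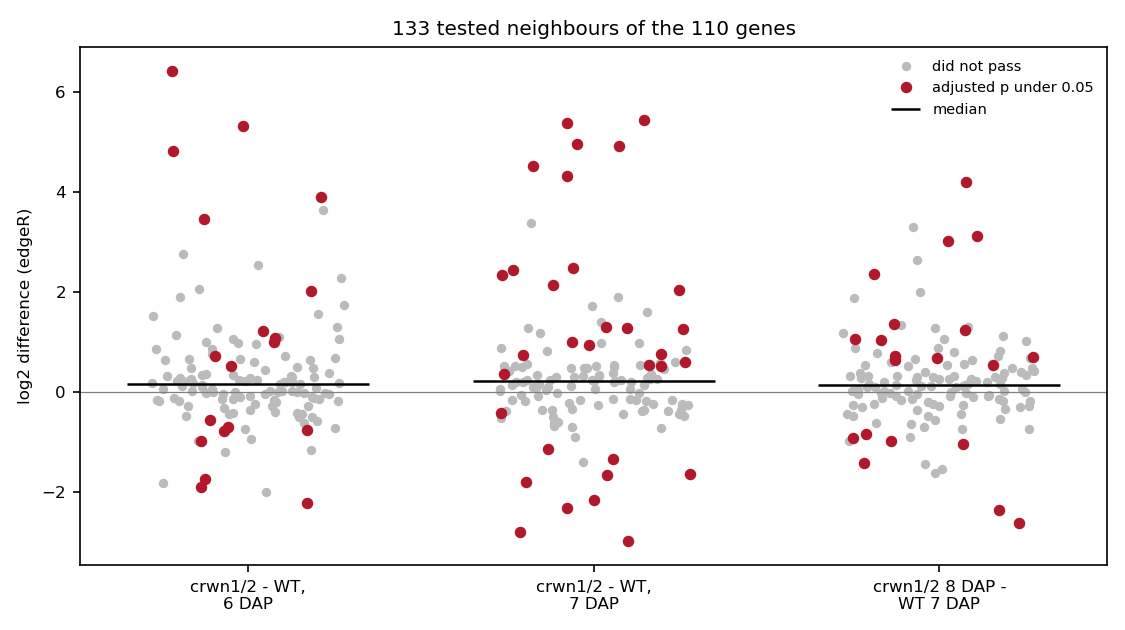
Log2 difference of the 133 tested neighbours in the 3 contrasts of crwn1/2 with WT, 1 point per gene, with those past an edgeR adjusted p of 0.05 marked. The medians are 0.15, 0.23 and 0.13, and points lie on both sides of 0.

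LCR genes outside the 110 were not uniformly higher. The choice had taken out the LCR genes that were low in WT and reached the crwn1/2 limit. The counts for the rest are therefore a description. Of 69 LCR genes outside the 110, 30 could be tested. At 6 DAP 5 rose and 5 fell (16.7% each, against 6.37% and 6.26% of all features). At 7 DAP 6 rose (20%, against 10.9%) and 3 fell (10%, against 13.5%). For crwn1/2 at 8 DAP over WT at 7 DAP 3 rose (10%, against 6.9%) and 4 fell (13.3%, against 7.04%). LCR73, picked like the next 2 after its values were seen, had 52.1, 20.5, 27, 170 and 73.6 CPM in crwn1/2 7 DAP replicates 1 to 5, against 1.1, 3.29, 0 and 7.01 CPM in WT 7 DAP replicates 1 to 4. The groups did not overlap, and LCR73 rose by 4.59 on the log2 scale (SE 0.67, edgeR adjusted p = 6.23e-05).

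At 6 DAP LCR73 had 56.4, 148 and 52.2 CPM in crwn1/2, against 63.2, 61.9, 55.3 and 41.3 CPM in WT, where the log2 difference, 0.56, did not pass. LCR45 had 8.90, 2.44, 1.04, 29.8 and 13.9 CPM in crwn1/2 at 7 DAP, against 0, 0.253, 0.212 and 0.716 CPM in WT, with a log2 difference of 5.18 (edgeR adjusted p = 0.000536). LCR62 went the other way, with 23.4, 24 and 23.2 CPM in crwn1/2 at 6 DAP, against 88.4, 118, 110 and 110 CPM in WT, and fell by 2.25 on the log2 scale (edgeR adjusted p = 1.88e-08). Its libraries were alike within each group, in contrast to the LCR members.

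Lists of genes for the PRC2 subunits and the cell types held no member. Of 8 PRC2 genes 1 was higher and 0 lower in crwn1/2 than in WT at 6 DAP, 1 was higher and 0 lower at 7 DAP, and 1 was higher and 1 lower for crwn1/2 at 8 DAP over WT at 7 DAP. Of 8 tested endosperm markers 4 were higher and 0 lower at 6 DAP, 2 higher and 1 lower at 7 DAP, and 1 higher and 1 lower for 8 DAP. Of 7 seed coat markers 3 were higher and 1 lower at 6 DAP, 2 higher and 2 lower at 7 DAP, and 1 higher and 4 lower for 8 DAP. Of 9 tested embryo markers 1 was higher at 6 DAP, and 0 passed at 7 DAP or for 8 DAP. Over all features 6.37%, 10.9% and 6.9% were called higher and 6.26%, 13.5% and 7.04% lower in these 3 contrasts. The same shares apply to the lists in the next paragraph.

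Leaf markers, 5 genes, summed to 4277 to 5583 CPM in crwn1/2 and 6523 to 8044 CPM in WT at 6 DAP, with 0 called higher and 2 lower, 0 called at 7 DAP, and 0 higher and 1 lower for 8 DAP over WT at 7 DAP. Egg cell and synergid markers, 6 genes, summed to 1.49 to 2.22 CPM in crwn1/2 and 3.71 to 11.7 CPM in WT at 6 DAP, with 0 of 3 tested called higher and 1 lower, 0 higher and 2 lower at 7 DAP and 0 called for 8 DAP. Pollen and sperm markers, 8 genes, summed to 3.64 to 17.9 CPM in crwn1/2 and 12.2 to 18 CPM in WT at 6 DAP, with 0 of 2 tested called in any of the 3 contrasts with WT. At 6 DAP, the age at which most of the 110 genes were highest, the leaf and egg cell sums were thus lower in every crwn1/2 library than in every WT library, and the seed coat and endosperm sums were higher. Whether a shift in cell types has a part in the levels of the 110 genes was not tested.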

How the data were processed

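The labels' protocols describe mRNA libraries made from the RNA of sorted 6C nuclei with the SMART-Seq mRNA LP kit, and CUT&RUN for H3K27me3. The authors deposited whole-number read counts per annotated gene, and the submitters' processing notes name STAR 2.7.1a, HTSeq and TAIR10. The authors deposited peak lists with reads, log2 enrichment and a p-value with its FDR for each peak, and the same notes name Bowtie2 2.3.4.1 and SICER 0.0.52. The counting strand is not given in the sources used here. Gene positions came from RefSeq (TAIR10.1), and their fit to the peak coordinates was checked at the chromosome ends. Reads outside features were 4.05% to 5.92% and ambiguous reads 1.19% to 1.52% of a library, and both stayed out of totals and tests. 12 columns of control counts in the peak lists, total H3 and IgG were not used.

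Counts were fitted with edgeR 4.0.16 (R 4.3.3) in 1 quasi-likelihood model over 5 groups and 20 libraries, with TMM scaling, a filter at 10 counts (filterByExpr) and Benjamini-Hochberg adjustment over 24696 features at 0.05. Log2 differences are crwn1/2 minus WT, or the later minus the earlier age. The test was checked on simulated data for crwn1/2 against WT at 7 DAP with 23640 features tested, where it recovered 94 of 100 genes changed 4-fold and 11 of 100 changed 2-fold, with 5 false calls. The counts of the 110 genes were low, and precision was limited by the 3 to 5 libraries of a group. Whether the same recovery holds for genes as low as the 110, or as uneven between libraries, was not tested. H3K27me3 was counted by overlap with the gene body, with 3 lists per group. Replicate numbers were shared between groups, but same-numbered libraries had correlated deviations over 0.1 in 2 of 36 pairs (median -0.009), so the numbers were not taken as pairs.

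The genes and lists were chosen with earlier results of these data known. Named genes were the highest by age-group mean or by mean log2 level, the named and the adjacent members, those nearest to the limits, those with the lowest and highest age differences, those that lost H3K27me3 and the neighbours with the 3 largest and 3 smallest differences past the threshold. Alternatives were DESeq2 1.42.0, other scalings, filters, limits, overlap rules and single libraries left out.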

Additional observations from a re-analysis of the deposited data

Results flagged for a closer look

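In 10 of 60 sets of 4 or 5 libraries of 1 group, the library at an end stood apart by Dixon's criterion. The criterion flags about 1 of 20 independent sets of normal values. These sets shared libraries and genes that varied together, so the 10 cannot be set against that rate. In 6 of the 10, the library was crwn1/2 7 DAP replicate 4. The summed level of the LCR genes was 106 CPM there, and the next crwn1/2 7 DAP library had 31 CPM. In the same library AT3G02670 had 89.0 CPM (next 17.3 CPM), LCR60 34.1 CPM (next 8.68 CPM), AT3G03828 23.1 CPM (next 2.89 CPM), LCR35 5.02 CPM (next 1.51 CPM) and GH9B9 0.457 CPM (next 0.217 CPM). That GH9B9 level lay inside its WT range, 0 to 0.480 CPM. In crwn1/2 8 DAP replicate 4 LCR60 had 7.84 CPM (next 0.842 CPM), LCR61 5.61 CPM (next 0.505 CPM) and EXPA23 1.94 CPM (next 0 CPM). In WT 7 DAP replicate 4 the LCR genes summed to 3.44 CPM, where the next of the 4 WT 7 DAP libraries had 1.71 CPM. WT 6 DAP libraries had up to 5.28 CPM. What sets these libraries apart was not tested.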

How the results depend on the processing

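No result reversed under the alternatives tried. The rule gave 110 genes, and 42 or 293 with a WT limit of 0.25 or 1 CPM and 173 or 55 with a crwn1/2 limit of 2 or 5 CPM. With a library left out it gave 81 to 128. Medians in place of means gave 156 genes, of which 85 were shared, and 87 of the 110 had at least 2 libraries of an age at 3 CPM, an alternative chosen after seeing the data. When only the 2 groups compared were fitted, 30 of the 110 genes were called at 6 DAP, 12 at 7 DAP and 13 for crwn1/2 at 8 DAP over WT at 7 DAP, and for crwn1/2 alone 6 at 7 over 6 DAP and 25 at 8 over 6 DAP. Neighbours then numbered 21 at 7 DAP and 10 for 8 DAP. With no filter on low counts, 42 genes were called for 8 DAP over WT, 26 at 7 over 6 DAP and 12 at 8 over 7 DAP, and 50 neighbours at 7 DAP and 35 for 8 DAP. With the replicate block the count at 7 DAP was 22 for the genes and 19 for neighbours, and the other counts stayed within 1.5 times. With 2 genes on each side there were 39 neighbours called at 6 DAP and 49 at 7 DAP. Shares of all features called are not set beside the counts here or in the next paragraph. Those counts show how the calls depend on the settings and nothing particular to the 110 genes.

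With a library left out, 43 to 91 genes were called at 6 DAP, 25 to 60 at 7 DAP, 12 to 29 for 8 DAP over WT, 5 to 17 at 7 over 6 DAP, 1 to 7 at 8 over 7 DAP and 20 to 55 at 8 over 6 DAP. Neighbours ranged over 10 to 21, 22 to 39 and 10 to 24. H3K27me3 was counted over 16 genes in crwn1/2 endosperm with peaks under an FDR of 1e-10, and over 31 to 40 with a list left out, over 41 to 45 in WT endosperm, 49 to 54 in crwn1/2 leaf and 53 to 56 in WT leaf. Loss of the mark was found for 2 genes at 50% cover, at an FDR under 1e-10 or with 1 kb on each side, and for 1 to 2 with a list left out. The cause of these shifts was not tested. DESeq2 called 87, 50 and 28 genes in the 3 contrasts with WT. Of 904 settings of single-gene results 864 gave the same call. A window upstream of the genes, promoters and proteins were not analysed here, since strand and sequences were not used. At 1 count, a gene stood at 0.0696 to 0.143 CPM, so WT levels near that cannot be ranked.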
